A study of Mus musculus with 8 samples.

Results

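Chemokine ligands are the small secreted proteins encoded by the Ccl, Cxcl, Cx3cl and Xcl genes. They were taken from the table of isolated mouse white adipocytes by gene symbol, as the protein-coding genes whose symbol starts with one of these 4 stems followed by a digit, and 33 of the 30387 genes in the table met this rule. The cells were isolated from epididymal fat. The mice were either wild-type littermates (WT) or Ad-Yap/Taz-KO mice (KO), in which a constitutive Cre recombinase under the adiponectin promoter (Adipoq-Cre) recombines floxed alleles of Yap and Taz in adipocytes. Mice of both genotypes received normal chow (NC, the standard diet of the study) or a high-fat diet (HFD) for 4 weeks from week 5 of age according to the description of the data set, whereas the methods of the study start the diets at a later age. Each of the 4 groups (WT on NC, KO on NC, WT on HFD and KO on HFD) has 2 libraries of bulk RNA, each labelled as 1 mouse. The labels give neither sex nor batch, and the methods of the study name male animals for its in vivo work.

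Chemokines guide the movement of leukocytes through G protein-coupled receptors, and each receptor is carried by certain cell types. CCR2 ligands draw monocytes, CCR1 ligands draw monocytes, macrophages and T cells, CXCR2 ligands draw neutrophils, and CXCR3 ligands, which interferon induces, draw T cells and natural killer cells. In fat tissue, adipocytes, stromal cells and resident macrophages can all make chemokines, and CCL2 is the best known of those that bring monocytes into the fat of obese animals.

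The libraries hold between 14.0 and 22.3 M reads on genes, estimated from the spacing of the deposited values, and all values below are normalized counts, in which the reads on a gene were divided by a size factor of that library. Among well-expressed genes, the pair of WT libraries on HFD differed from each other less than the other pairs. For genes with 1000 to 5000 counts, their squared difference was 6.18 times what counting alone gives, against 32.3 in WT on NC, 69.1 in KO on NC and 104 in KO on HFD, whereas for genes with 5 to 20 counts it was 4.87 times, within the range of 4.66 to 6.4 of the other pairs. The study gives the libraries of each group as separate mice and describes its data as biological replicates. Whether these WT libraries are nevertheless repeats from 1 mouse cannot be told from the values. Such repeats would leave the WT group on HFD with 1 sample in every comparison that uses it. Both values are therefore printed without a standard deviation, and each test was repeated with this pair averaged to 1 sample. Of the targeted genes, Wwtr1, which encodes TAZ, was lower in KO mice on both diets (4743 and 5594 in WT against 1957 and 2441 in KO on NC, 6807 and 7121 against 2060 and 2707 on HFD). Yap1 was lower in KO mice on NC (2717 and 2776 in WT against 1669 and 1699 in KO), a call lost in 6 of the 8 fits that left out a library, and its values on HFD were 2333 and 2468 in WT and 1549 and 2068 in KO (limma adjusted p = 0.059, and 0.012 without KO on HFD replicate 2). The call of Yap1 was also lost with only the 2 groups compared, with the WT pair on HFD as 1 sample and without a filter on low values. The 9 adipocyte markers, Adipoq and Plin1 among them, summed to between 82420 and 349068 in every library, and the 11 macrophage markers, such as Adgre1 and Cd68, summed to between 2164 and 29374. In RNA from a whole cell preparation, more cells of a type and more RNA per cell cannot be told apart.

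Differences between groups were tested with limma in 1 fit of all 8 libraries on log2(normalized count + 1), which understates the change of low genes. A gene was called when its Benjamini-Hochberg adjusted p over all 18800 tested genes was at most 0.05 and its log2 fold change at least 0.59 in either direction. Genes averaging 5 or more over the 8 libraries were tested, and 26 of the 33 ligands reached this. Differences are given as the log2 fold change (log2FC) ± its standard error. Every ligand was above 0 in at least 1 library.

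On HFD, 11 of the 26 tested ligands were higher in KO than in WT mice and none was lower, where 32.2% of all tested genes were called, 17.1% higher and 15.1% lower. At an unadjusted p under 0.05, 14 ligands were higher and 0 lower. On NC, 8 ligands were higher in KO mice and none was lower, against 4.71% of all genes called, 3.21% higher and 1.5% lower. At an unadjusted p under 0.05, 10 were higher and 1 was lower. The 8 ligands called on NC were also called on HFD; both comparisons come from the same fit but share no library. They are Ccl3, Ccl4, Ccl5, Ccl6 and Ccl9, which lie side by side on chromosome 11, the CCR4 ligand Ccl22, the CXCR2 ligand Cxcl2 and Cxcl16. Cxcl12, Cxcl14 and Cx3cl1 were called on HFD and not on NC. The median log2 fold change of the 26 ligands was 1.10 on HFD and 0.16 on NC, where that of all tested genes was 0.09 and -0.01. The plot of both genotype comparisons shows all tested ligands with their errors.

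**Figure D1:**
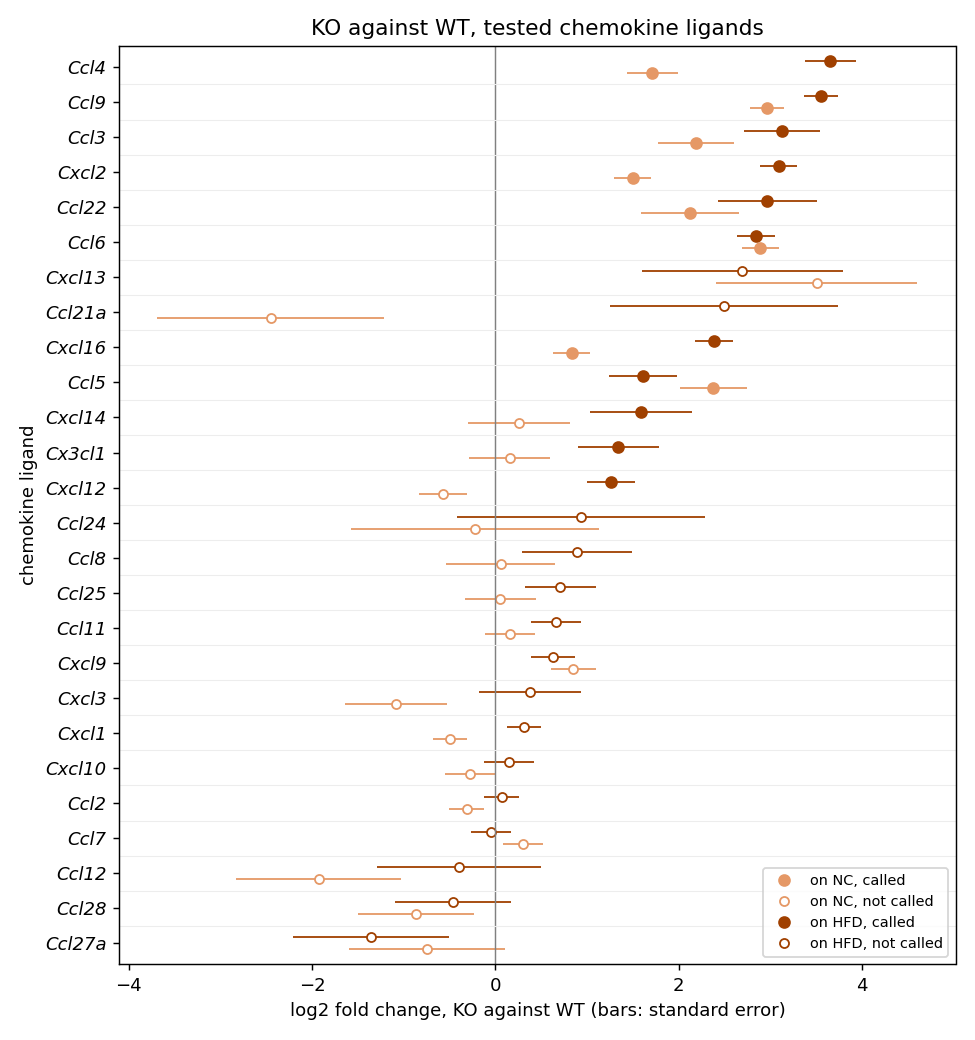
The log2 fold change of KO against WT mice (x axis, bars are standard errors) is plotted for the 26 tested ligands on HFD (dark) and on NC (light), with called values filled. All 11 called ligands on HFD and all 8 on NC lie to the right of 0, and the ligands with the widest bars, such as Ccl21a, Ccl24 and Cxcl13, are low genes that were not called.

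To show the upstream DNA of ligands on which the results turn, the 8 ligands called in most comparisons were taken, and of these the first 3 with 1 window in the RefSeq promoter table (GRCm38.p6) are printed. RefSeq windows were matched for 24 of the 33 ligands by symbol. Each sequence is the 250 bases before the start of the gene in RefSeq, 5′ to 3′ on the strand of the gene, with matches in capitals to 6 motifs searched on both strands. These motifs were NF-kappaB (GGG, any 3 bases, TTCC), AP-1 (TGANTCA), TEAD, the factors with which YAP and TAZ act (GGAATG), IRF (GAAA, any 2 bases, GAAA), the GC box (GGGCGG) and the TATA box (TATAAA). By the coordinates of the table, Cxcl2 starts earlier, so that the last 28 bases of its window lie within the gene. Cxcl2 and Ccl9 were higher in KO mice on both diets and Cxcl12 on HFD.
Cxcl2, chr5:90903649-90903898, plus strand: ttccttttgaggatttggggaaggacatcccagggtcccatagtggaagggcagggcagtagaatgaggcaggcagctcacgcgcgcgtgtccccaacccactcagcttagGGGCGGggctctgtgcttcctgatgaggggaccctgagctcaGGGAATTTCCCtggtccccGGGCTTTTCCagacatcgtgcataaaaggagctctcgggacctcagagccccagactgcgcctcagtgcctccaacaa
Ccl9, chr11:83578637-83578886, minus strand: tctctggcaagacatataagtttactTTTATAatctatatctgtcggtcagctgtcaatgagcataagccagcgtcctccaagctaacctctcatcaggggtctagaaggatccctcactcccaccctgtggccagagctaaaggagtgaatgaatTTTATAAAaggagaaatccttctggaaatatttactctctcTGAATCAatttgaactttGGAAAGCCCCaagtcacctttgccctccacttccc
Cxcl12, chr6:117168285-117168534, plus strand: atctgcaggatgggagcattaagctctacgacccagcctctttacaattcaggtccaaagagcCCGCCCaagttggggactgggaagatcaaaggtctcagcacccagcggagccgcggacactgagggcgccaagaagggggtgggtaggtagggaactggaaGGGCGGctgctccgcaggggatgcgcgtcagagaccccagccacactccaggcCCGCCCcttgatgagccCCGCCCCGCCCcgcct
The Cxcl2 window holds 3 matches to the NF-kappaB letters, of which 2 are the same stretch read on both strands and shifted by 1 base, and 1 GC box. The Ccl9 window holds 1 NF-kappaB match, 1 AP-1 match and 3 TATA box matches, a pair of which overlap on opposite strands. The Cxcl12 window holds 5 GC box matches, 2 of them overlapping by 1 base, and none to the other motifs. Its GC content is 64.4%, against 60% for Cxcl2 and 43.6% for Ccl9. Of all 32851 windows of this length, 4.65% hold the NF-kappaB letters, 6.75% AP-1, 12.6% TEAD, 2.98% IRF, 32.7% the GC box and 12.4% the TATA box. Of the 24 ligands with a window, 6 hold the NF-kappaB letters (Ccl1, Ccl9, Cxcl1, Cxcl2, Cxcl3 and Cxcl10), 3 AP-1, 3 the TEAD letters (Ccl17, Cxcl3 and Cxcl13), 3 IRF, 5 the GC box and 9 the TATA box.

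All 5 ligands of the chromosome 11 stretch from Ccl5 to Ccl4 were called higher in KO mice on both diets, with a median log2 fold change of 3.12 on HFD and 2.38 on NC. Ccl9 (also known as MIP-1 gamma) is a CCR1 ligand of rodents. Ccl9 had values of 417 and 363 in WT and 3654 and 2522 in KO mice on NC, and 308 and 324 in WT and 3630 and 3806 in KO mice on HFD. Both KO libraries were far above both WT libraries on each diet, and the KO libraries of the diets overlapped at their upper end. The log2FC was 3.55 ± 0.19 on HFD (adjusted p = 7.4e-08) and 2.96 ± 0.19 on NC (adjusted p = 2.3e-06). Ccl6 is another CCR1 ligand of rodents and is abundant in myeloid cells. Ccl6 had 154 and 163 in WT and 1237 and 1132 in KO mice on NC, and 181 and 136 in WT and 1027 and 1245 in KO mice on HFD. The WT groups overlapped each other, as did the KO groups, and the genotypes were well apart, with log2FC of 2.84 ± 0.21 on HFD (adjusted p = 9.2e-07) and 2.89 ± 0.21 on NC (adjusted p = 5.9e-06).

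Ccl3 and Ccl4 encode MIP-1 alpha and MIP-1 beta, products of activated macrophages. Ccl4 had 98 and 148 in WT and 492 and 320 in KO mice on NC, and 91 and 74 in WT and 1024 and 1067 in KO mice on HFD. The KO libraries were above the WT libraries on both diets and, within the KO mice, both libraries on HFD were above both on NC. The log2FC between genotypes was 3.66 ± 0.28 on HFD (adjusted p = 1.3e-06) and 1.71 ± 0.28 on NC (adjusted p = 0.0026). The interaction of genotype and diet, the difference between these values, was 1.94 ± 0.39 (adjusted p = 0.0091). This interaction was no longer called without WT on HFD replicate 2 (1.80, adjusted p = 0.055), with that pair averaged to 1 sample or without a filter on low values. Ccl3 had 54 and 28 in WT and 249 and 132 in KO mice on NC, and 49 and 40 in WT and 322 and 482 in KO mice on HFD. It was higher in KO mice by a log2FC of 3.12 ± 0.42 on HFD (adjusted p = 0.00012) and of 2.19 ± 0.42 on NC (adjusted p = 0.0078), the latter no longer called without WT on NC replicate 2 (1.73, adjusted p = 0.12) or KO on NC replicate 1 (1.74, adjusted p = 0.071), with only the 2 groups compared or without a filter on low values. Ccl5 (RANTES) is a product of T cells and macrophages. Ccl5 had 23 and 26 in WT and 134 and 129 in KO mice on NC, and 43 and 49 in WT and 134 and 151 in KO mice on HFD. The KO libraries lay within a narrow range on both diets, above all WT libraries, with log2FC of 1.61 ± 0.37 on HFD (adjusted p = 0.0049) and 2.38 ± 0.37 on NC (adjusted p = 0.0018).

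**Figure D2:**
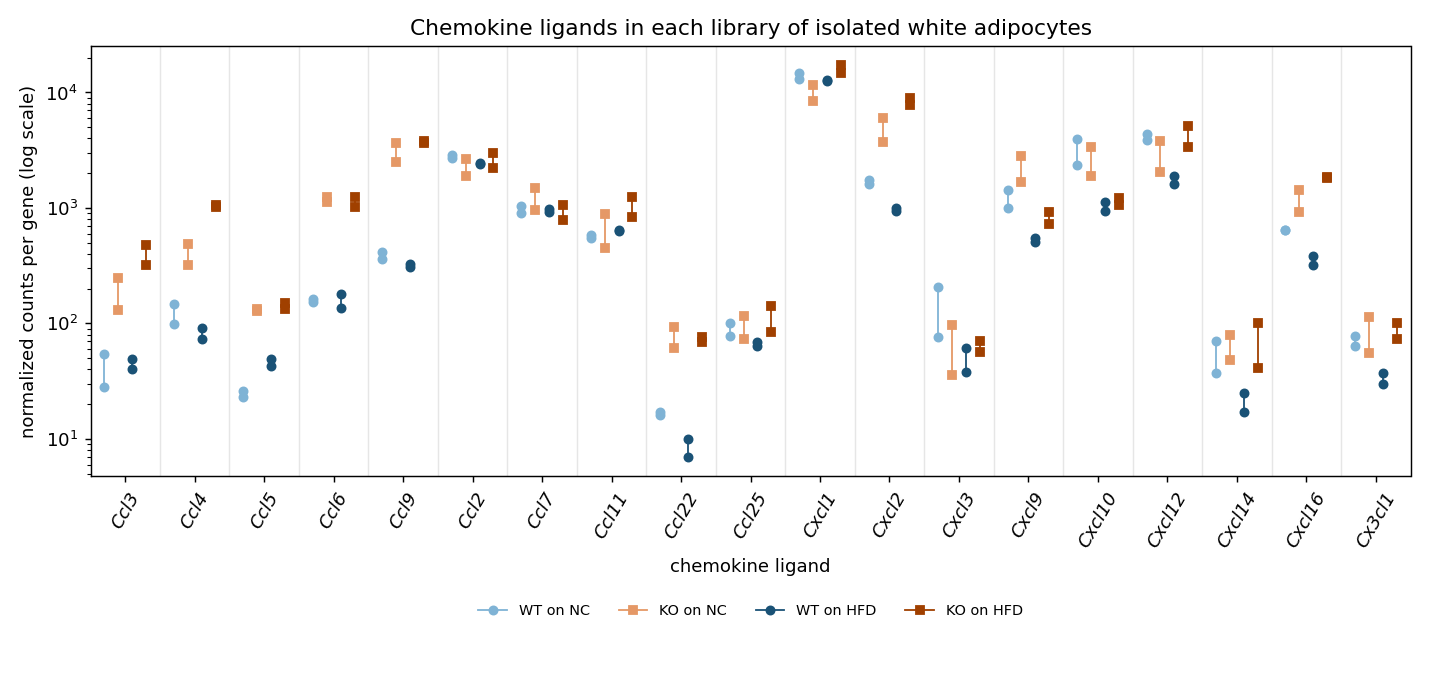
Normalized counts per gene (y axis, log scale) of the 19 ligands whose values are given in every library, 1 point per library and a line joining the 2 libraries of a group, WT as circles and KO as squares, NC light and HFD dark. For Ccl3, Ccl4, Ccl5, Ccl6 and Ccl9 the KO points lie above all WT points, whereas the 4 groups of Ccl2 and of Ccl7 lie close together.

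The CCR2 ligands did not show this pattern. Of the 4 (Ccl2, Ccl7, Ccl8 and Ccl12), 0 were called by limma in any of the 5 comparisons, and 0 had an unadjusted p under 0.05 in any of them. Ccl2 (MCP-1) is the main ligand of CCR2. Ccl2 had 2694 and 2861 in WT and 2641 and 1894 in KO mice on NC, and 2420 and 2463 in WT and 2198 and 2986 in KO mice on HFD. Each KO group spanned a wider range than the WT group of the same diet, below the WT values on NC and around them on HFD, with a log2FC of 0.07 ± 0.19 on HFD (adjusted p = 0.81) and of -0.31 ± 0.19 on NC (adjusted p = 0.44). Ccl7 (MCP-3) had 1042 and 907 in WT and 1496 and 961 in KO mice on NC, and 914 and 973 in WT and 787 and 1063 in KO mice on HFD. Its groups overlapped on both diets, and its log2FC was -0.04 ± 0.22 on HFD (adjusted p = 0.9) and 0.30 ± 0.22 on NC (adjusted p = 0.54). The other CCR2 ligands were low, between 11 and 42 for Ccl8 and between 3 and 44 for Ccl12. After scaling to equal totals, the log2 fold change of Ccl7 on HFD turned from slightly negative to 0.34 and was still not called. Ccr2, which encodes the receptor itself, had 92 and 89 in WT and 148 and 127 in KO mice on NC and 48 and 54 in WT and 97 and 41 in KO mice on HFD, with no call in either genotype comparison (adjusted p = 0.53 on NC and 0.61 on HFD).

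The 5 ligands higher in KO mice and the CCR2 ligands also differ in position on chromosome 11 (GRCm38). The former lie next to each other from Ccl5 (start 83525778) through Ccl9, Ccl6 and Ccl3 to Ccl4 (end 83664683), while Ccl2 (start 82035571), Ccl7, Ccl11, Ccl12, Ccl8 and Ccl1 form a separate stretch. The summed counts of the stretch from Ccl5 to Ccl4 were 746 and 728 in WT and 5766 and 4235 in KO mice on NC, and 672 and 623 in WT and 6137 and 6751 in KO mice on HFD. Those of the stretch from Ccl2 to Ccl1 were 4364 and 4388 in WT and 5061 and 3341 in KO mice on NC, and 4014 and 4088 in WT and 3852 and 5319 in KO mice on HFD. The first sum separated the genotypes on both diets and the second overlapped between them on both.

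**Figure D3:**
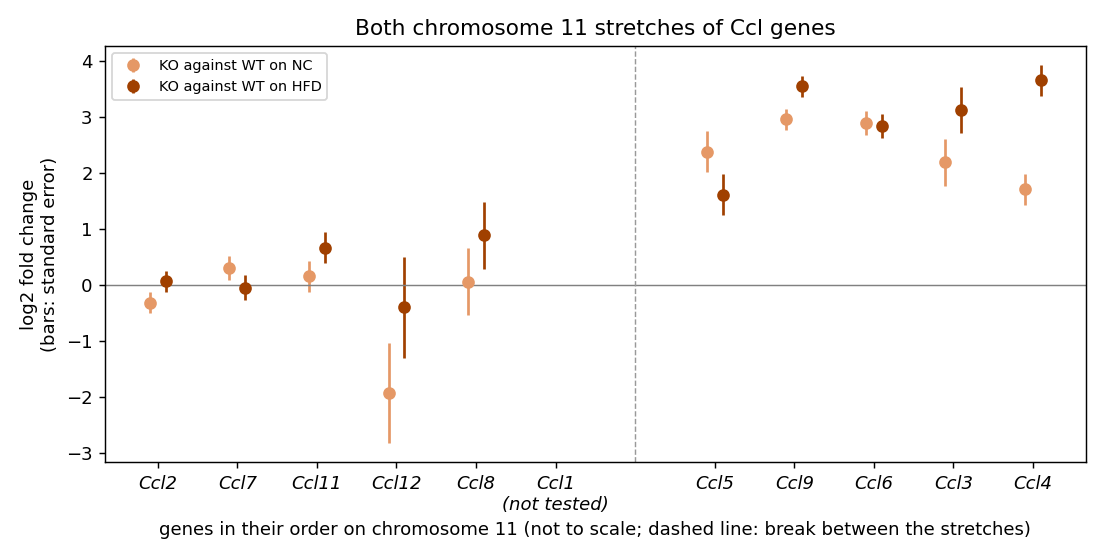
The log2 fold change of KO against WT mice (y axis, bars are standard errors) on NC (light) and HFD (dark) is plotted for the Ccl genes of both stretches in their order on chromosome 11. All 5 genes from Ccl5 to Ccl4 lie above 1.5 on both diets, whereas none of the 5 tested genes from Ccl2 to Ccl8 was called.

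Ccl11 (eotaxin) is a ligand of the eosinophil receptor CCR3. Ccl11 had 581 and 545 in WT and 878 and 449 in KO mice on NC, and 650 and 631 in WT and 838 and 1234 in KO mice on HFD. Both KO libraries on HFD were above the WT libraries, but the log2 fold change of 0.67 ± 0.27 had an adjusted p of 0.078. The value became 1.05 and was called after scaling to equal totals, and it was also called without either KO library on NC or without KO on HFD replicate 1 (0.94). Ccl22 is made by macrophages and dendritic cells and binds CCR4 on T cells. Ccl22 had 17 and 16 in WT and 93 and 61 in KO mice on NC, and 7 and 10 in WT and 76 and 69 in KO mice on HFD. Its KO and WT libraries did not overlap, with log2FC of 2.97 ± 0.54 on HFD (adjusted p = 0.0012) and of 2.13 ± 0.54 on NC (adjusted p = 0.041). The call on NC was lost with the replicate number as a block (adjusted p = 0.065), after scaling to equal totals, with only the 2 groups compared and without a filter on low values. It was also lost without any 1 of the 6 libraries other than those of WT on HFD, with log2FC from 1.83 to 2.43 and adjusted p from 0.065 to 0.21. Ccl25 is a CCR9 ligand known from thymus and gut. Ccl25 had 78 and 100 in WT and 115 and 73 in KO mice on NC, and 64 and 69 in WT and 84 and 142 in KO mice on HFD, with no call in any comparison.

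Among the CXCR2 ligands, Cxcl1 and Cxcl2, which lie side by side on chromosome 5, behaved differently. Cxcl1 (KC) was the most abundant ligand per kilobase of exon in every group, at 7446 normalized counts per kb in WT on NC, 5350 in KO on NC, 6797 in WT on HFD and 8478 in KO on HFD (means of 2 libraries). It made up between 28.8% and 57.8% of the summed ligand counts of a library. Cxcl1 had 13086 and 14835 in WT and 11665 and 8399 in KO mice on NC, and 12804 and 12686 in WT and 17134 and 14660 in KO mice on HFD. The KO libraries were the lower ones on NC and the higher ones on HFD, with log2FC of -0.49 ± 0.18 (adjusted p = 0.18) and 0.31 ± 0.18 (adjusted p = 0.2), neither of them called. After scaling to equal totals the value on HFD was 0.70 and was called (adjusted p = 0.012). The interaction of 0.81 ± 0.26 (adjusted p = 0.048) was called, and it was lost under 4 of 8 alternatives. It was also lost without any 1 of the 6 libraries other than KO on NC replicate 1 and KO on HFD replicate 2, with values from 0.57 to 0.90 and adjusted p from 0.071 to 0.16.

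Cxcl2 (MIP-2), whose promoter is shown above, had 1604 and 1743 in WT and 5996 and 3717 in KO mice on NC, and 942 and 1007 in WT and 8899 and 7751 in KO mice on HFD. It was the ligand that moved in the most comparisons together with Cxcl16 and Ccl4, and its 4 groups did not overlap. KO mice were higher by a log2FC of 3.09 ± 0.20 on HFD (adjusted p = 3.5e-07) and of 1.497 ± 0.20 on NC (adjusted p = 0.00063). The interaction was 1.59 ± 0.28 (adjusted p = 0.0056). In WT mice, Cxcl2 differed on HFD from NC by a log2FC of -0.78 ± 0.20 (adjusted p = 0.018), a call lost with the WT pair on HFD as 1 sample, without a filter on low values or without any 1 of the 4 WT libraries (adjusted p from 0.099 to 0.13). Per kilobase, Cxcl2 ranked 5 among the ligands in both WT groups and 2 in both KO groups. Cxcl3 was low, with 76 and 208 in WT and 96 and 36 in KO mice on NC, and 38 and 61 in WT and 56 and 71 in KO mice on HFD, and was not called in any comparison. The remaining CXCR2 ligands Cxcl5 and Cxcl15 had means under 5. Transcripts of their receptor Cxcr2 were listed at 5 or fewer counts in every library, and the 5 neutrophil markers summed to 44 and 24 in WT and 80 and 66 in KO mice on NC, and to 12 and 12 in WT and 67 and 54 in KO mice on HFD. Of the 3 that were tested, Csf3r was called higher in KO than in WT mice on HFD. It was also called lower on HFD than on NC in WT mice, and the other 2 were called in neither comparison. On HFD, Csf3r had 5 and 0 in WT and 64 and 49 in KO mice. S100a8 had 7 and 11 in WT and 1 and 1 in KO mice there, and S100a9 had 0 and 0 against 2 and 4. Ly6g and Retnlg had at most 2 counts in any library.

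The CXCR3 ligands Cxcl9 and Cxcl10 were called between the diets and in neither comparison of the genotypes. Cxcl10 is an interferon-induced ligand. Cxcl10 had 3986 and 2345 in WT and 1897 and 3359 in KO mice on NC, and 937 and 1128 in WT and 1069 and 1223 in KO mice on HFD. All 4 libraries on HFD were below all 4 on NC. HFD against NC had a log2FC of -1.57 ± 0.27 in WT (adjusted p = 0.003) and -1.14 ± 0.27 in KO mice (adjusted p = 0.068), and the interaction was 0.43 ± 0.38 (adjusted p = 0.46). The call in WT was lost without WT on NC replicate 1 (-1.19, adjusted p = 0.063), and the value in KO mice was called without KO on NC replicate 1 (-1.55, adjusted p = 0.012) and with a pseudocount of 8. Cxcl9 is induced by interferon gamma. Cxcl9 had 1438 and 1008 in WT and 1681 and 2805 in KO mice on NC, and 549 and 508 in WT and 921 and 725 in KO mice on HFD. It fell on HFD in both genotypes, by a log2FC of -1.19 ± 0.24 in WT (adjusted p = 0.0069) and of -1.41 ± 0.24 in KO mice (adjusted p = 0.019), and both calls were lost with the WT pair on HFD as 1 sample. That in KO mice was also lost with only the 2 groups compared and without a filter on low values. Without WT on NC replicate 1 the fall in WT was -0.93 (adjusted p = 0.1), and without KO on NC replicate 2 that in KO mice was -1.04 (adjusted p = 0.19). Leaving out either WT library on HFD ended both calls, and leaving out KO on HFD replicate 2 ended that in KO mice (adjusted p from 0.053 to 0.12). The KO libraries were above the WT libraries on each diet, with log2FC of 0.63 on HFD (adjusted p = 0.063) and 0.85 on NC (adjusted p = 0.073) that were not called. The value on HFD was called after scaling to equal totals (1.01, adjusted p = 0.0041), with only the 2 groups compared (adjusted p = 0.039) and without either KO library on NC, and that on NC without KO on NC replicate 1 (1.22, adjusted p = 0.018). Exons of Art3 on the opposite strand cover 5.91% of the exon bases of Cxcl10, and the sources used here do not state whether reads were counted by strand. Art3 had between 1298 and 4821 counts.

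Of the ligands with other receptors, Cxcl12 and Cxcl16 were the most abundant. Cxcl12 (SDF-1) is made by stromal and endothelial cells and retains hematopoietic cells through CXCR4. Cxcl12 had 4363 and 3907 in WT and 3816 and 2037 in KO mice on NC, and 1607 and 1900 in WT and 3383 and 5168 in KO mice on HFD. The WT values fell on HFD to less than those of any other group, by a log2FC of -1.24 ± 0.26 (adjusted p = 0.0079), and the KO values on HFD were above them by 1.26 ± 0.26 (adjusted p = 0.0028). On NC the KO values were the lower ones, with a log2FC of -0.57 that was not called (adjusted p = 0.3) except without KO on NC replicate 1 (-1.02, adjusted p = 0.035). The interaction was 1.82 ± 0.37 (adjusted p = 0.0093). The fall in WT and the interaction were not called with the WT pair on HFD as 1 sample (adjusted p = 0.083 and 0.057), nor without a filter on low values, nor without WT on NC replicate 1 (-1.16 and 1.75) or WT on HFD replicate 1 (-1.12 and 1.70). Without WT on HFD replicate 2 the fall in WT was -1.36 (adjusted p = 0.058). Cxcl16 is a transmembrane chemokine and scavenger receptor that binds CXCR6. Cxcl16 had 641 and 650 in WT and 1437 and 919 in KO mice on NC, and 380 and 321 in WT and 1852 and 1805 in KO mice on HFD. The 4 groups did not overlap and, as for Cxcl2, the genotypes were farther apart on HFD than on NC. The log2FC between genotypes was 2.38 ± 0.21 on HFD (adjusted p = 3.6e-06) and 0.83 ± 0.21 on NC (adjusted p = 0.038), and that between diets in WT was -0.88 ± 0.21 (adjusted p = 0.012). The interaction was 1.55 ± 0.29 (adjusted p = 0.007). The calls on NC and in WT were lost with the WT pair on HFD as 1 sample, without a filter on low values and without any 1 of the 4 WT libraries. That on NC was also lost after scaling to equal totals (adjusted p = 0.079) and with only the 2 groups compared (adjusted p = 0.14). Without KO on NC replicate 1 the log2FC on NC was 0.51 (adjusted p = 0.19). Exons of Zmynd15 on the opposite strand cover 18.3% of the exon bases of Cxcl16, and Zmynd15 had between 12 and 116 counts.

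Cx3cl1 (fractalkine) is a membrane-bound ligand on endothelial cells. Cx3cl1 had 78 and 64 in WT and 113 and 55 in KO mice on NC, and 30 and 37 in WT and 73 and 101 in KO mice on HFD. Cxcl14 is found in many epithelia and in fibroblasts. Cxcl14 had 71 and 37 in WT and 79 and 48 in KO mice on NC, and 25 and 17 in WT and 100 and 41 in KO mice on HFD. The WT libraries on HFD were the lowest for both genes. For KO against WT on HFD the log2FC was 1.34 ± 0.44 for Cx3cl1 (adjusted p = 0.033) and 1.59 ± 0.56 for Cxcl14 (adjusted p = 0.044). Both calls were lost with that pair as 1 sample, or without any filter on low values, and that of Cxcl14 also with only the 2 groups compared. With 1 library left out, Cx3cl1 stayed called in 2 of 8 fits, those without a KO library on NC, and its log2FC was 1.11 without KO on HFD replicate 2. Cxcl14 stayed called in 3 of 8 fits, and its log2FC was 0.96 without KO on HFD replicate 1 (adjusted p = 0.3).

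The 14 remaining ligands were low. For the 7 of them that were tested (Ccl8, Ccl12, Ccl21a, Ccl24, Ccl27a, Ccl28 and Cxcl13) the highest value in any library was 69, for Cxcl13 in a KO library on NC, and none was called. Ccl21a and Ccl27a have near-identical copies in the mouse genome, so that their counts are uncertain. The 7 with a mean under 5 were Ccl1, Ccl17, Ccl19, Cxcl5, Cxcl15, Cxcl17 and Xcl1, with no value above 22. A gene with an expected count of up to 3 reads can be listed at 0, so their absence was not shown.

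Compared between the diets, 5 ligands were lower on HFD than on NC in WT mice (Cxcl2, Cxcl9, Cxcl10, Cxcl12 and Cxcl16) and none was higher, where 18% of all genes were called, 8.74% higher and 9.22% lower. At an unadjusted p under 0.05, 9 were lower and 1 was higher. In KO mice, Ccl4 was higher on HFD by a log2FC of 1.40 ± 0.28 (adjusted p = 0.037) and Cxcl9 was lower, where 1.07% of all genes were called, 0.383% higher and 0.691% lower. At an unadjusted p under 0.05, 7 were higher and 3 were lower. The rise of Ccl4 stayed called in 1 of the 8 fits that left out a library, that without KO on NC replicate 1, and was 1.09 without KO on NC replicate 2 (adjusted p = 0.31). It was also lost with the WT pair on HFD as 1 sample, with only the 2 groups compared, with the replicate block and without a filter on low values (adjusted p = 0.1, 0.19, 0.064 and 0.19). The 5 ligands called for the interaction (Ccl4, Cxcl1, Cxcl2, Cxcl12 and Cxcl16) were all more positive on HFD. For all genes 17.4% were called, 8.69% more positive and 8.73% more negative. The median log2 fold change of HFD against NC over the tested ligands was -0.83 in WT and 0.16 in KO mice, where that of all tested genes was -0.08 and 0.03. Scaling to equal totals moved the median of all tested genes from 0.09 to 0.47 for KO against WT on HFD, from -0.08 to -0.48 for HFD against NC in WT and from 0.10 to 0.52 for the interaction, and no called ligand changed its direction. These comparisons share libraries: the WT pair on HFD enters the genotype comparison on HFD, the diet comparison in WT and the interaction.

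**Figure D4:**
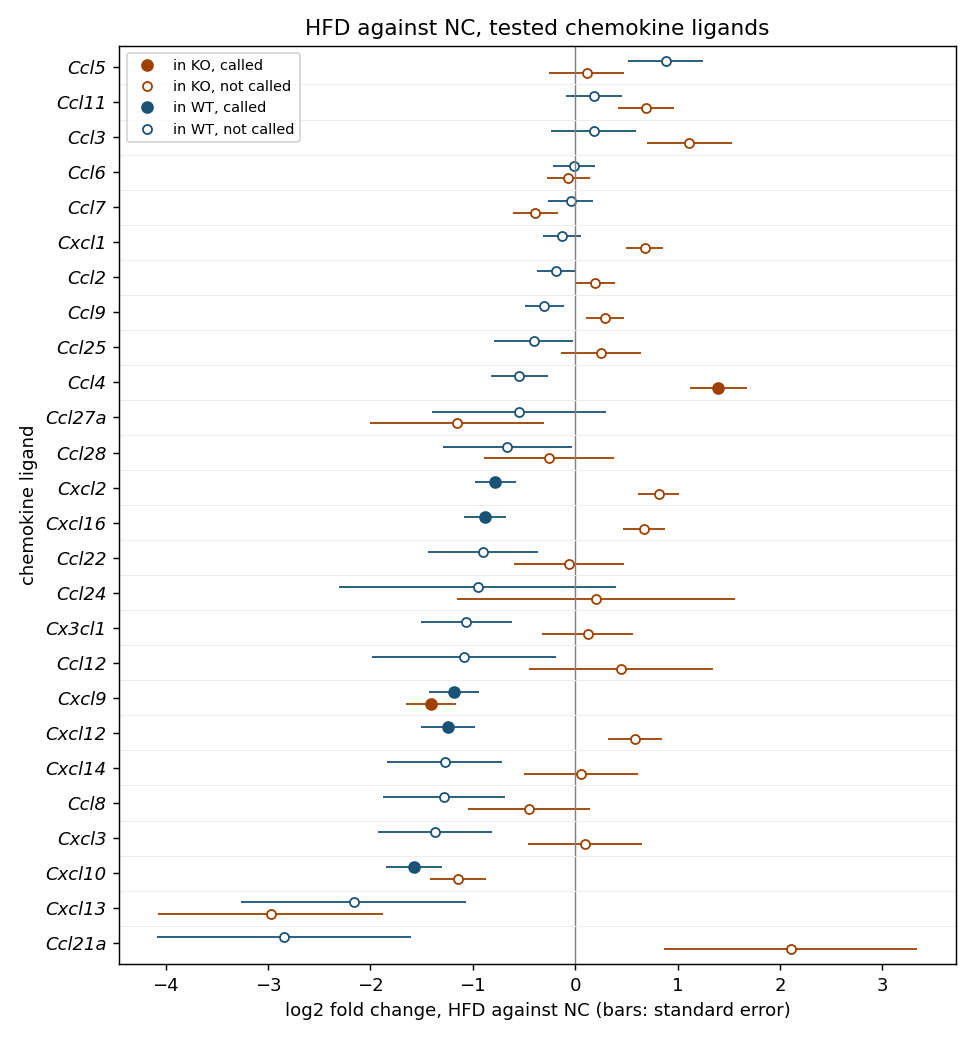
The log2 fold change of HFD against NC (x axis, bars are standard errors) is plotted for the 26 tested ligands in WT (blue) and KO mice (brown), with called values filled. The 5 called WT values lie to the left of 0, and the 2 called KO values lie on opposite sides of it, Ccl4 at 1.40 and Cxcl9 at -1.41.

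Of 23 chemokine receptors, 22 were in the table and 17 were tested. Of the tested receptors, 3 were higher in KO mice on HFD and the same 3 on NC (Ccr3, Cxcr4 and Ccrl2), and 1 was lower on HFD (Ackr3). The higher receptors are 17.6% of those tested on each diet, near the 17.1% of all tested genes called higher on HFD and above the 3.21% on NC. Between the diets, Ackr3 was called higher on HFD in WT (kept in 8 of 8 left-out fits) and in KO mice (2 of 8). Cxcr5 was called lower on HFD in WT mice. Each is 5.88% of the tested receptors, against 8.74% of all genes higher and 9.22% lower in WT and 0.383% higher in KO. For the interaction, Ccrl2 and Cxcr4 were called more positive, 11.8% against 8.69% of all genes. Ccrl2 is an atypical receptor that does not signal through G proteins. Ccrl2 had 127 and 163 in WT and 906 and 577 in KO mice on NC, and 114 and 86 in WT and 1461 and 1174 in KO mice on HFD. It was higher in KO mice by 3.71 ± 0.26 on HFD (adjusted p = 7.3e-07) and 2.32 ± 0.26 on NC (adjusted p = 0.0002). Cxcr4 is the receptor of Cxcl12. Cxcr4 had 178 and 236 in WT and 649 and 394 in KO mice on NC, and 120 and 161 in WT and 1033 and 1000 in KO mice on HFD, with log2FC of 2.86 ± 0.27 on HFD (adjusted p = 6.7e-06) and 1.299 ± 0.27 on NC (adjusted p = 0.012). The call of Cxcr4 on NC was lost without WT on NC replicate 1 (1.10, adjusted p = 0.14) or KO on NC replicate 1 (0.94, adjusted p = 0.092). The calls of Cxcr4 and Ccr3 on NC were both lost without a filter on low values and with only the 2 groups compared. Ackr3, an atypical receptor that takes up Cxcl12, went the other way on HFD. It had 280 and 304 in WT and 211 and 211 in KO mice on NC, and 793 and 705 in WT and 381 and 444 in KO mice on HFD, a log2FC of -0.86 ± 0.20 on HFD (adjusted p = 0.0049) that was lost after scaling to equal totals (-0.48, adjusted p = 0.1) and without WT on HFD replicate 1 (-0.78, adjusted p = 0.063). Ccr3 was low, with 1 and 0 in WT and 28 and 21 in KO mice on NC, and 1 and 0 in WT and 32 and 63 in KO mice on HFD. It was called on NC in 2 of the 8 fits that left out a library. Ccr1, the receptor of Ccl6 and Ccl9, was not called on HFD (1.23 ± 0.47, adjusted p = 0.061) or on NC (0.86 ± 0.47, adjusted p = 0.39). The value of Ccr1 on HFD was called after scaling to equal totals.

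Between the genotypes, most macrophage markers were higher in KO mice, as were the ligands from Ccl5 to Ccl4. The 11 markers summed to 4542 and 4589 in WT and 28348 and 15629 in KO mice on NC, and to 2164 and 2271 in WT and 29374 and 27620 in KO mice on HFD. Of these markers, 10 of 11 were called higher in KO mice on HFD and 9 of 11 on NC. In WT mice, 8 of 11 were called lower on HFD than on NC. None was at 0 in all libraries of a group, and Fcgr1 was at 0 in 1 library of WT mice on HFD. In the diet comparison in WT mice, 0 of the 5 ligands from Ccl5 to Ccl4 were called. Their median log2 fold change there was -0.01, against -1.11 for the markers, whereas Cxcl2, Cxcl12 and Cxcl16 were called lower. For the interaction, 9 of 11 macrophage markers and 1 of the 5 ligands from Ccl5 to Ccl4 were called. Adgre1 encodes the macrophage protein F4/80. Adgre1 had 150 and 152 in WT and 1699 and 922 in KO mice on NC, and 73 and 90 in WT and 3314 and 3178 in KO mice on HFD. The fibroblast and progenitor markers summed to between 8827 and 9140 in WT and between 33106 and 37562 in KO mice on HFD, and the endothelial markers to between 14401 and 15042 and between 19092 and 29519. On NC neither list had a called marker between the genotypes, and the endothelial sums were 29069 and 23868 in WT and 22539 and 12316 in KO mice. In WT mice, where 5 ligands were lower on HFD than on NC, 4 of 6 endothelial and 3 of 7 fibroblast and progenitor markers were also called lower on HFD and 0 higher. Of 8 lymphocyte markers 5 were tested, and Cd4 and Cd79a were called lower on HFD in WT mice and higher in KO than in WT mice on HFD. The lymphocyte markers summed to 119 and 208 in WT and 273 and 184 in KO mice on NC, and to 45 and 41 in WT and 144 and 292 in KO mice on HFD. Of 5 dendritic cell markers, 0 were called higher in KO mice on either diet. Itgae, a marker of that list, was called lower in KO mice on HFD, with 157 and 154 in WT and 36 and 40 in KO mice. Of the 9 adipocyte markers, 8 were called lower in KO than in WT mice on HFD and Fabp4 was not called, with sums of 165280 and 82420 against 349068 and 341780. The part of these cell types in the ligand differences was not tested.

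**Figure D5:**
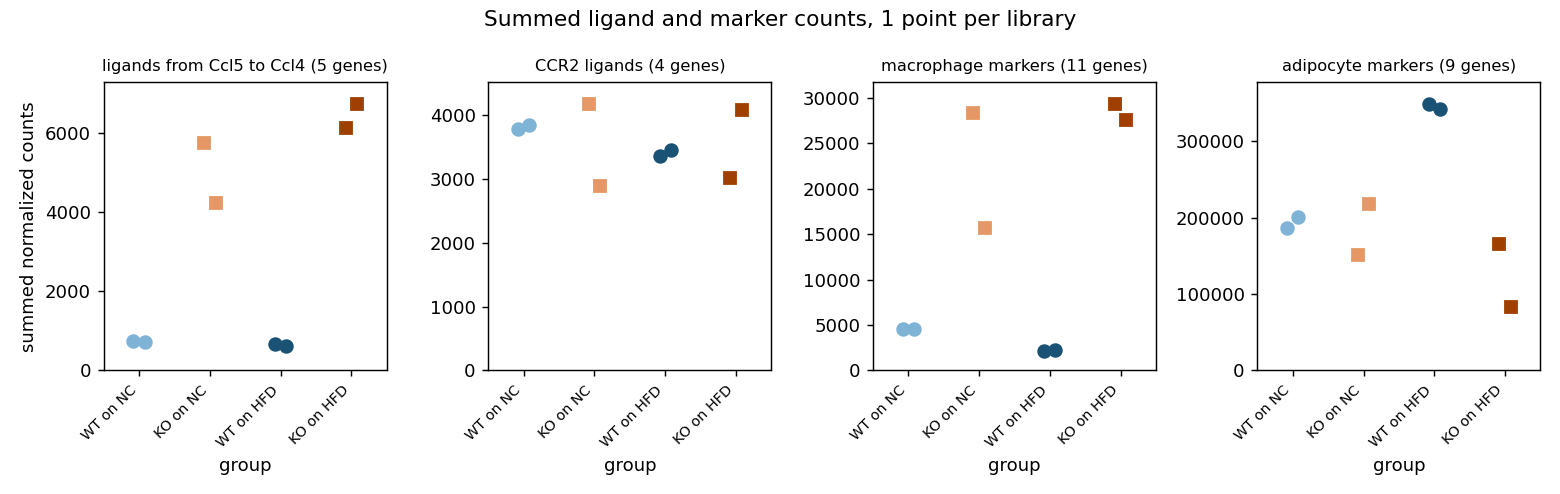
Summed normalized counts (y axes, each from 0) of the 5 ligands from Ccl5 to Ccl4, the 4 CCR2 ligands, 11 macrophage markers and 9 adipocyte markers in the 4 groups, 1 point per library. The ligands from Ccl5 to Ccl4 and the macrophage markers separate KO from WT mice on both diets, the CCR2 ligands lie between 2892 and 4182 in all libraries, and the adipocyte markers are highest in the WT libraries on HFD.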

How the data were processed

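RNA of 8 libraries was sequenced by the authors after ribosomal depletion and stranded library preparation. They aligned single-end reads to GRCm38 with STAR 2.5.2b, counted reads on exons with featureCounts 1.5.1 leaving out reads shared by genes or placed more than once, and ran DESeq2 1.14.1. The deposited values are a score, since the authors normalized the counts of each library by a size factor and then rounded them. Whole reads could not be recovered, so that no count model was used. Groups came from the sample labels. Genes with a mean of at least 5 were tested on log2(value + 1) with 4 group means, using lmFit, contrasts.fit and a trended eBayes of limma 3.58.1 under R 4.3.3 (4 residual and 8.59 prior degrees of freedom), a procedure also tested on simulated data. With 2 libraries a group, an exact permutation test of 1 gene cannot go below p = 0.333. The p-values measure the spread between libraries, and intervals from counting alone would be narrower. Values were printed in every library for each ligand called in any of 5 comparisons or with a mean of at least 50. They were also printed for receptors called between genotypes with a mean of at least 50, and for Ccr2, Ccr3, Yap1 and Wwtr1. An item of the receptor list is not reported here and was left out of the counts. The members, lists and motifs were chosen with earlier results of these data known. Exon lengths and overlaps came from GENCODE vM21, and sequences from RefSeq. Alternatives were pseudocounts of 0.5 and 8, no filter or a minimum mean of 50, scaling to equal totals or to the upper quartile, only the 2 groups compared, a replicate block, the WT pair on HFD averaged to 1 sample, and leaving out each library. Tables and figures were made with Python 3.11.15, numpy 2.4.6, pandas 2.3.3 and matplotlib 3.10.9.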

Additional observations from a re-analysis of the deposited data

Results flagged for a closer look

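For 5 ligands the difference between KO and WT mice was not the same on both diets by the limma test of the interaction. They are 19.2% of the tested ligands, where 17.4% of all tested genes were called for it. All 5 were more positive on HFD, as were 8.69% of all tested genes. The difference on HFD exceeded that on NC by a log2 value of 1.94 for Ccl4 (adjusted p = 0.0091), 1.82 for Cxcl12 (adjusted p = 0.0093), 1.59 for Cxcl2 (adjusted p = 0.0056), 1.55 for Cxcl16 (adjusted p = 0.007) and 0.81 for Cxcl1 (adjusted p = 0.048). With the WT pair on HFD averaged to 1 sample, the values of Cxcl2 and Cxcl16 were still called and those of Ccl4, Cxcl1 and Cxcl12 were not.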

How the results depend on the processing

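Of 31 called ligand values, 16 were called under every alternative and with each library left out, and 0 reversed. Of 99 ligand values that were not called, 34 changed sign under an alternative or with a library left out. Among those printed, with 1 library left out, the log2 fold change for KO against WT on HFD ran from -0.26 to 0.17 for Ccl7 (0.34 after scaling to equal totals) and from -0.15 to 0.29 for Ccl2, and that of Ccl7 on NC from -0.017 to 0.62. That of the receptor gene Ccr2 on HFD ran from -0.31 to 0.92. All 5 ligands from Ccl5 to Ccl4 were called on HFD in every fit. The counts of ligands called changed by over 1.5 times as follows. Without a filter on low values there were 5 for KO against WT on NC, 2 for HFD against NC in WT, 0 in KO, and 2 for the interaction. With only the 2 groups compared there were 5 on NC and 0 for the diet in KO. With the WT pair on HFD as 1 sample there were 1, 0 and 2 for the diet in WT, the diet in KO and the interaction. Scaling to equal totals gave 9 for the diet in WT, and a pseudocount of 8 gave 4 for the diet in KO. For receptors, no filter gave 1 on NC, 1 for the diet in WT, 0 in KO and 0 for the interaction, only the 2 groups gave 1 on NC and 0 for the diet in KO, the WT pair as 1 sample gave 1, 0 and 0 for the diet in WT, the diet in KO and the interaction, and a mean of at least 50 gave 1 and scaling to equal totals 5 for the diet in WT. The cause of these changes was not tested.

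The correlation of replicate differences between groups ran from -0.30 to 0.11, so that the values did not show a pairing of mice by replicate number. With 1 difference per group, this cannot tell whether mice of the same number were littermates or handled together. The replicate block gave 1 ligand and 0 receptors for the diet in KO and 1 receptor for the diet in WT, and 3 of 31 ligand calls were lost (Ccl22 on NC, Ccl4 for the diet in KO and the interaction of Cxcl1).

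Leaving out each library gave 9 to 13 ligands on HFD, 5 to 7 on NC, 0 to 6 for the diet in WT, 0 to 8 for the diet in KO and 3 to 8 for the interaction, and 3 to 5, 1 to 3, 1 to 2, 0 to 3 and 0 to 2 receptors. Without KO on NC replicate 1 the diet comparison in KO gave 8 ligands and the interaction 8, and without WT on NC replicate 1 the diet comparison in WT gave 0. Ligands with a mean under 50 rest on few reads, and the absence of a call there does not show that they did not differ.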

Other observations

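Pf4, Ppbp and Cxcl11 fell outside the rule on symbol and gene type. Pf4 (CXCL4), a product of platelets and some macrophages, had 46 and 60 in WT and 216 and 86 in KO mice on NC, and 23 and 33 in WT and 193 and 301 in KO mice on HFD, a log2FC of 3.08 ± 0.46 on HFD (adjusted p = 0.00029). Ppbp (CXCL7) had 11 and 9 in WT and 10 and 1 in KO mice on NC, and on HFD it had 20 and 10 in KO mice while each WT library listed it at 0. It was called higher in KO mice on HFD (adjusted p = 0.02) and for the interaction (adjusted p = 0.048). The first of these calls was kept in 4 and the second in 1 of the 8 fits that left out a library. Both were lost with the WT pair on HFD as 1 sample, and the second also with the replicate block, with a pseudocount of 8 and without a filter on low values. Cxcl11, a CXCR3 ligand that the annotation of the table lists as a polymorphic pseudogene in the reference strain, had 78 and 77 in WT and 108 and 194 in KO mice on NC, and 87 and 84 in WT and 35 and 21 in KO mice on HFD. It was lower in KO than in WT mice on HFD by a log2FC of -1.62 ± 0.42 (adjusted p = 0.0097), and lower on HFD than on NC in KO mice by -2.37 ± 0.42 (adjusted p = 0.021). The first difference was called in 5 and the second in 2 of the 8 fits that left out a library, neither was called with the WT pair on HFD as 1 sample, and the second was also lost without a filter on low values and with only the 2 groups compared. With 1 library left out, the first ran from -1.98 to -1.26 and the second from -2.79 to -1.95. The interaction of genotype and diet was also called for Cxcl11. It was more negative on HFD, unlike that of the 5 ligands called within the rule, and was kept in 2 of the 8 fits that left out a library.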
